A study of Homo sapiens with 16 samples.

Results

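The 10 genes described here, GATA3, TCF7, LEF1, BCL11B, RUNX1, RUNX3, ETS1, MYB, TOX and SATB1, encode transcription factors and chromatin organisers of T-lineage commitment. They were found by symbol, 10 of the 57820 entries of the deposited expression table. The libraries, 16 in all, came from CUTLL1, KOPTK1 and HpbALL, 3 established human cell lines from T-ALL (T-cell acute lymphoblastic leukaemia), in which the long non-coding RNA lnrCXCR4 was targeted. Lentivirus with CRISPR components and targeting guide RNA gave 2 libraries in each line, set against non-targeting guides (1 library in CUTLL1, 1 in KOPTK1 and 2 in HpbALL). Antisense oligonucleotides (ASOs) against the transcript, added to the medium at 1 uM, gave 2 libraries each in CUTLL1 and KOPTK1, set against 1 scrambled-ASO library per line. Every control had thus received a non-targeting guide or a scrambled oligonucleotide. Sources used here do not give the Cas protein, the time after treatment or whether cells were cloned. Titles number the 2 targeted libraries of a group as guide or ASO 1 and 2, while descriptions call them replicates. They may thus hold different guides or ASOs, and they were used as replicates. The labels do not say that libraries of a group were grown as separate cultures. A p-value here therefore reflects spread among libraries, and that spread may be technical. In the guide and ASO comparisons over lines the spread also includes differences between the lines in their response. A single control was assumed to vary like the other groups. The level of lnrCXCR4 itself was not analysed here, since no entry could be matched to it by name, so its knockdown does not check the labels.

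During T-cell development NOTCH signals from the thymus switch on TCF7 and GATA3 in incoming progenitors, and BCL11B follows as cells give up other fates. RUNX, ETS and MYB family factors then bind T-cell genes together with these regulators, and TOX and SATB1 act later, while CD4 and CD8 cells are chosen. Several of the genes, among them BCL11B, LEF1, GATA3, RUNX1 and MYB, are known to be altered in part of human T-ALL.

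Libraries held 34547469 to 72178929 recovered reads, and the 10 genes held 898 to 106669 reads each per library. Of 11 T-cell identity markers 10 were listed, each above 0 in all 16 libraries. The T-cell receptor gene TRAC had the widest fold range among them, 13.8 to 56797 normalised counts, lowest in KOPTK1. The myeloid genes CSF3R and ELANE were at 0 in all 16 libraries, and the B-cell gene MS4A1 did not exceed 0.952 normalised counts. Other genes of these lists were present, AIF1 of the myeloid list at 2584 to 11750 normalised counts. Of the B-lineage list IGLL1 ran from 49.6 to 10350, CD79A from 125 to 2005 and CD79B from 0 to 659. All 10 factor genes had a mean of 20 or more normalised counts, the level needed to be tested, in every comparison.

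The sequences before the transcription start are shown for the paralogues TCF7 and LEF1, whose ratio shifted in opposite directions in CUTLL1 and KOPTK1, and for BCL11B, which was lower in every experiment. Each is the 250 bases before an annotated start on the gene's own strand, from RefSeq on GRCh38.p14, while hg19 is the build named in the submitters' processing notes. The windows are chr5:134115363-134115612 (plus strand) for TCF7, chr4:108166302-108166551 (minus strand) for LEF1 and chr14:99272198-99272447 (minus strand) for BCL11B. Capitals mark the motifs searched on both strands.
TCF7: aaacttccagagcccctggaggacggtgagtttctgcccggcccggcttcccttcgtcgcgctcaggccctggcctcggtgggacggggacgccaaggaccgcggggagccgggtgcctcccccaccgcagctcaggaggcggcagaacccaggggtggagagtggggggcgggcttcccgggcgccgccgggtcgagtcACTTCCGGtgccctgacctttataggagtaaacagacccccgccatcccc
LEF1: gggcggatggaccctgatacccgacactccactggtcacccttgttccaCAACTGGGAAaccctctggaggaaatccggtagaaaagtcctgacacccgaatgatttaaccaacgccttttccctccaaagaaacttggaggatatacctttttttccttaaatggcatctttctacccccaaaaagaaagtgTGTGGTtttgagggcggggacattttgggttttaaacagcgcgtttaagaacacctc
BCL11B: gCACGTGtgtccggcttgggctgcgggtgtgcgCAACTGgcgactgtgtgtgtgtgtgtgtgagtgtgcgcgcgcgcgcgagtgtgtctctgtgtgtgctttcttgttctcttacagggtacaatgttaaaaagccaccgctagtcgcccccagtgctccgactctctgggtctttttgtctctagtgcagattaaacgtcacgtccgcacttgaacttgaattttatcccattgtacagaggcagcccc
The motifs were AGATAA and TGATAA for GATA factors, CTTTGAA and CTTTGAT for TCF and LEF factors, TGTGGT for RUNX, CCGGAAGT for ETS, CAACTG for MYB, TGGGAA for RBPJ, the DNA-binding partner of NOTCH, and CACGTG for MYC. In TCF7 the ETS motif stood at -50 on the reverse strand (ACTTCCGG). In LEF1 the MYB motif at -201 overlapped the RBPJ motif at -197, and the RUNX motif stood at -57. In BCL11B the MYB motif stood at -217 and the MYC motif at -249. Of 8 factor genes with 18 such windows, 4 windows held the RUNX motif (in GATA3, LEF1, RUNX3 and SATB1), 3 that of RBPJ (LEF1, RUNX3 and TCF7), 2 that of MYB (BCL11B and LEF1), 2 that of MYC (BCL11B and GATA3) and 1 that of ETS. The RBPJ motif of TCF7 stood at -163 in another window of that gene, not in the one printed. Genes had unequal numbers of windows, so these are counts of windows and not of genes. Among all 35116 windows the shares were 11.0% for RUNX, 20.8% for RBPJ, 9.0% for MYB, 6.34% for MYC and 3.42% for ETS. The GATA motifs (9.17% and 6.66% of all windows) and the TCF and LEF motifs (3.8% and 2.26%) are in none of the 18 windows.

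Across the lines, 9 of the 10 factor genes were lower with guides than with non-targeting guides at an adjusted p under 0.05 (limma, Benjamini-Hochberg). Among all 14069 genes tested 35.0% were lower and 32.7% higher. The factors' median log2 fold change was -0.48, against -0.03 over all genes. With ASOs 8 of 10 were lower than with the scrambled ASO, against 33.2% of 13712 genes (31.8% higher), and the median was -0.39, against -0.01 over all genes. By limma 0 factors were higher in either comparison, and 0 were higher at an unadjusted p under 0.05, by edgeR or by DESeq2. Fewer cells expressing a gene and less of its RNA per cell cannot be told apart in bulk RNA.

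The counts by experiment came from 1 fit of all 16 libraries and 14020 tested genes. In CUTLL1 6 factors were lower with guides (background 31.5%) and 7 with ASOs (31.8%), and LEF1 was higher with both (30.8% and 30.5% of genes higher). In KOPTK1 9 were lower with guides (33.1%) and 8 with ASOs (32.8%). With ASOs TCF7 was higher in KOPTK1 (30.6% of genes higher), but its sign turned under quantile scaling. In HpbALL 9 were lower with guides (36.9%). GATA3, BCL11B, MYB, TOX and SATB1 were lower in all 5 experiments, 5 of 10 factors against 20.8% of tested genes. All targeted libraries lay below all controls of the line for 40.4% of 14020 genes in CUTLL1, 39.1% in KOPTK1 and 43.9% in HpbALL. They lay above all controls for 39.0%, 36.7% and 40.8%, so groups that do not overlap are common here, whichever gene is taken.

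**Figure D1:**
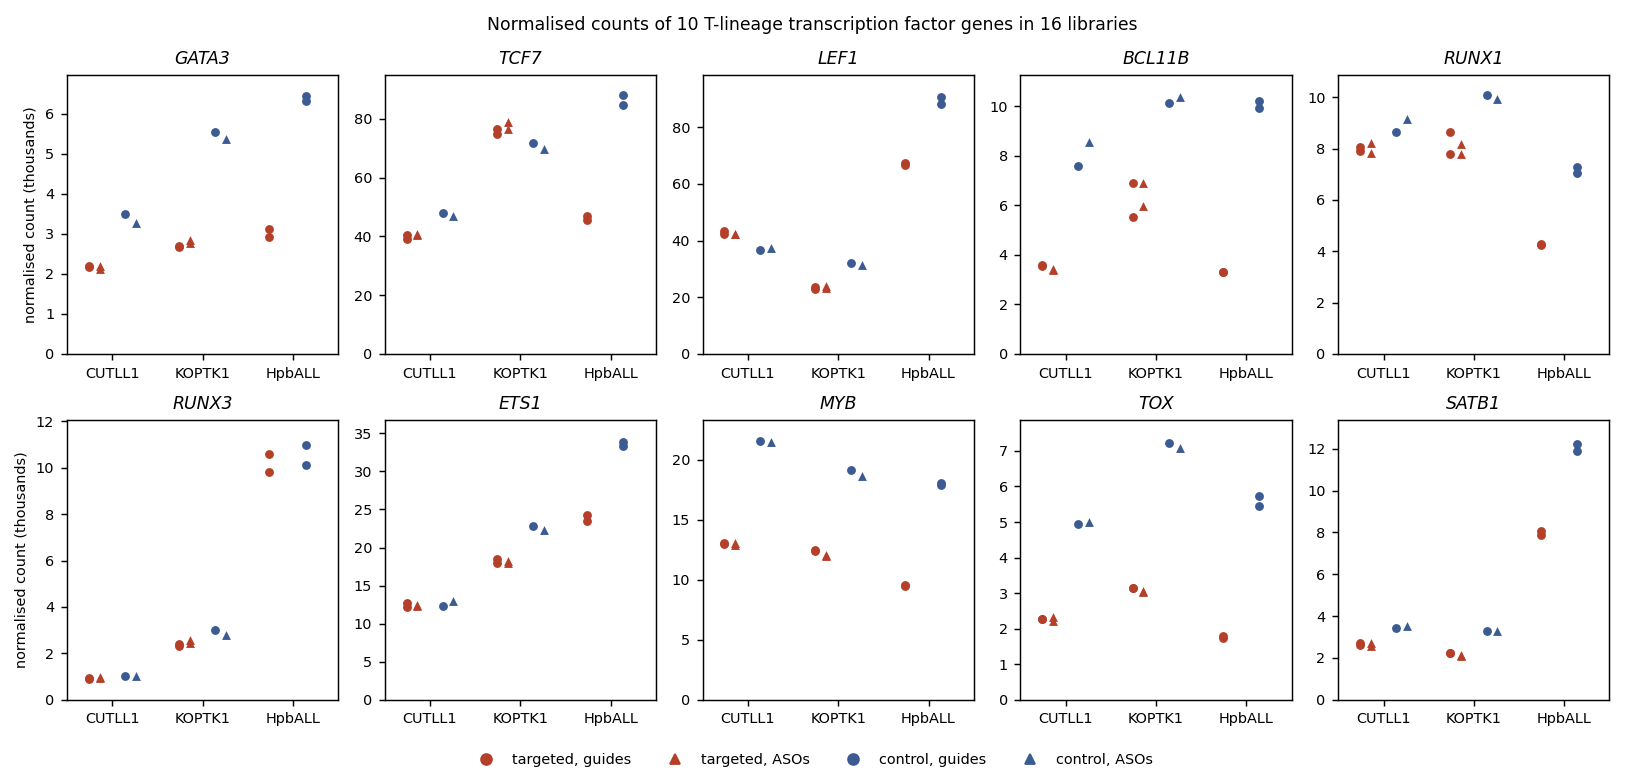
Normalised count of each factor gene in the 16 libraries by line, with targeted libraries in red left of control libraries in blue, guides as circles and ASOs as triangles. TOX, BCL11B, GATA3, MYB and SATB1 were lower in targeted libraries of every line, while LEF1 was higher in CUTLL1 and TCF7 lay above its controls in KOPTK1, a sign that turned under quantile scaling.

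GATA3 is a zinc-finger factor needed from the earliest stages of T-cell development. In CUTLL1 it had 2205 and 2160 normalised counts with guides, against 3495 with the non-targeting guide, and 2199 and 2123 with ASOs, against 3277 with the scrambled ASO. In KOPTK1 it had 2690 and 2662 with guides, against 5543, and 2845 and 2771 with ASOs, against 5371. In HpbALL it had 3115 and 2916 with guides, against 6433 and 6316 with non-targeting guides. All 10 targeted libraries lay below the controls of their line, as did those of 39.1% to 43.9% of genes within a line. GATA3 was at 47.3% of the control level in HpbALL, 48.3% and 52.3% in KOPTK1 with guides and ASOs, and 62.4% and 65.9% in CUTLL1. GATA3 fell in both comparisons, with a log2 fold change of -0.96 for guides (SE 0.0661, adjusted p 1.33e-06) and -0.77 for ASOs (SE 0.0756, adjusted p 0.000186). The fall was deeper in KOPTK1 than in CUTLL1, by a difference in log2 fold change of -0.37 with guides (SE 0.0648, adjusted p 0.00319) and -0.33 with ASOs (SE 0.0648, adjusted p 0.00654).

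TCF7 encodes TCF1, an HMG-box factor that is among the first T-lineage regulators induced by NOTCH and binds beta-catenin. CUTLL1 libraries held 40440 and 39096 normalised counts with guides, against 47937, and 40717 and 40503 with ASOs, against 46777. KOPTK1 libraries held 76341 and 74762 with guides, against 71782, and 79037 and 76636 with ASOs, against 69551. HpbALL libraries held 46772 and 45423 with guides, against 88047 and 84573. Targeted libraries lay below the controls in CUTLL1 and HpbALL and above them in KOPTK1, a sign that quantile scaling turned. By experiment the log2 fold change was -0.90 in HpbALL (SE 0.0323, adjusted p 4.41e-10), and -0.27 and -0.20 in CUTLL1 with guides and ASOs (SE 0.0396 each, adjusted p 0.000103 and 0.000853). In KOPTK1 it was 0.07 with guides (SE 0.0396, adjusted p 0.126) and 0.16 with ASOs (SE 0.0396, adjusted p 0.00375). Quantile scaling put the KOPTK1 values at -0.16 with guides (adjusted p 0.0052) and -0.05 with ASOs (adjusted p 0.293). Over the lines together TCF7 was lower with guides at -0.44 (SE 0.140, adjusted p 0.0179), a call lost without HpbALL sgRNA 1 (adjusted p 0.0501), HpbALL sgRNA 2 (0.0511) or HpbALL non-targeting guide 2 (0.0505). With ASOs the 2 lines together gave -0.02 (SE 0.0778, adjusted p 0.828). The SEs over lines together include the differing responses of the lines. Without the only scrambled ASO of CUTLL1 or of KOPTK1 the fit rested on the other line alone. It then gave that line's own value, 0.16 for KOPTK1 and -0.20 for CUTLL1. Quantile scaling put the value of the 2 lines together at -0.19 (adjusted p 0.0292), past the threshold.

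LEF1, the paralogue of TCF7, is another HMG-box partner of beta-catenin in thymocytes. The CUTLL1 levels were 43308 and 42261 normalised counts with guides, against 36630, and 42436 and 42228 with ASOs, against 37488. The KOPTK1 levels were 22759 and 23585 with guides, against 32165, and 23190 and 24155 with ASOs, against 31374. The HpbALL levels were 67276 and 66606 with guides, against 90532 and 88388. LEF1 was thus above its controls in all 4 targeted libraries of CUTLL1 and below them in the 4 of KOPTK1 and the 2 of HpbALL. LEF1 rose in CUTLL1, with a log2 fold change of 0.22 for guides (SE 0.0373, adjusted p 0.000272) and 0.18 for ASOs (SE 0.0373, adjusted p 0.00159), the ASO call being lost under quantile scaling (0.10, adjusted p 0.0729). The log2 fold change was -0.47 and -0.41 in KOPTK1 with guides and ASOs (SE 0.0373 each, adjusted p 6.19e-07 and 2.23e-06), and -0.42 in HpbALL (SE 0.0304, adjusted p 1.75e-07). The fit over the lines takes a single effect for all of them, so its SE includes their differing responses. Over the lines the guide value of -0.25 missed the threshold (SE 0.102, adjusted p 0.0518). It passed without CUTLL1 sgRNA 1 (-0.29, adjusted p 0.0297) or CUTLL1 sgRNA 2 (-0.28, adjusted p 0.0399), and in edgeR at -0.25 (adjusted p 0.0469) and in DESeq2 at -0.26 (adjusted p 0.022). Without the only CUTLL1 non-targeting guide the fit rested on KOPTK1 and HpbALL alone (-0.44, adjusted p 4.7e-06). The guide value over the lines also passed with a pseudocount of 5 (adjusted p 0.0498), a minimum mean of 100 (0.0499) and quantile scaling (-0.34, adjusted p 0.0187). The ASO value over 2 lines was -0.12 (SE 0.119, adjusted p 0.421). Without the only scrambled ASO of CUTLL1 or of KOPTK1 the fit gave the other line's value alone, -0.41 for KOPTK1 and 0.18 for CUTLL1. LEF1-AS1, the antisense neighbour of LEF1, had 114 to 604 normalised counts and was at -1.35 (log2 fold change) with guides and -1.19 with ASOs. Whether counting used strand is not stated, so reads of LEF1 and LEF1-AS1 cannot be told apart with certainty.

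TCF7 over LEF1 is a ratio within each library, in which a single scaling factor per library cancels, although quantile scaling does not. In CUTLL1 the ratio of normalised counts was 0.934, 0.925, 0.959 and 0.959 in targeted libraries, against 1.31 and 1.25 in controls. In KOPTK1 it was 3.35, 3.17, 3.41 and 3.17 in targeted libraries, against 2.23 and 2.22 in controls. In HpbALL it was 0.695 and 0.682 in targeted libraries, against 0.973 and 0.957 in controls. The balance moved towards LEF1 in CUTLL1 and HpbALL and towards TCF7 in KOPTK1, with no overlap between targeted and control libraries in any line. The share of other gene pairs without overlap was not computed. Under quantile scaling the log2 fold change of TCF7 minus that of LEF1 was -0.53 and -0.40 in CUTLL1 with guides and ASOs, 0.38 and 0.47 in KOPTK1, and -0.49 in HpbALL. KOPTK1 minus CUTLL1 in the effect of targeting was 0.34 with guides (SE 0.056, adjusted p 0.00211) and 0.37 with ASOs (SE 0.056, adjusted p 0.00156) for TCF7. The guide difference was 0.20 under quantile scaling and still passed (adjusted p 0.0318). For LEF1 the same difference was -0.70 with guides (SE 0.0527, adjusted p 1.12e-05) and -0.58 with ASOs (SE 0.0527, adjusted p 3.77e-05).

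**Figure D2:**
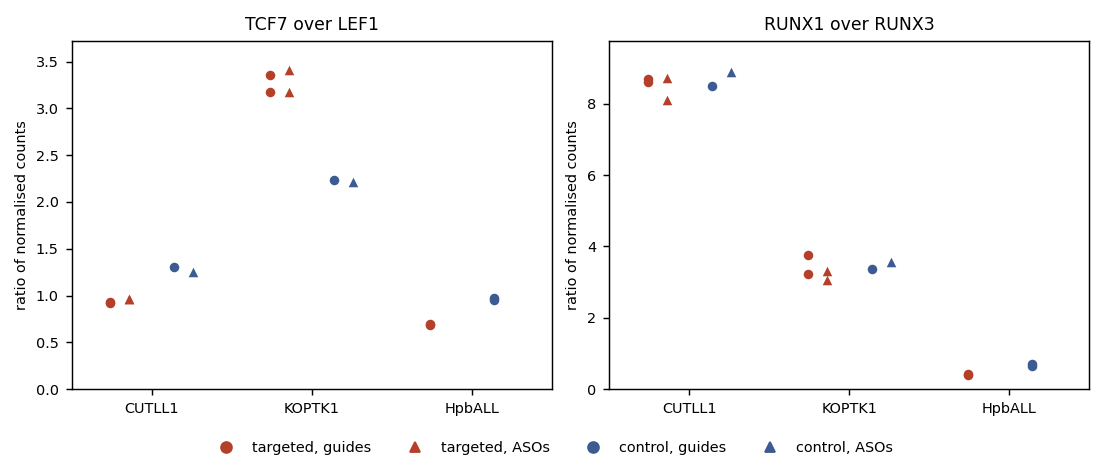
Ratio of normalised counts within each library, TCF7 over LEF1 on the left and RUNX1 over RUNX3 on the right, by line, with targeted libraries in red left of controls in blue and guides as circles, ASOs as triangles. TCF7 over LEF1 was 3.17 to 3.41 in KOPTK1 targeted libraries against 2.22 to 2.23 in controls, and 0.925 to 0.959 in CUTLL1 targeted libraries against 1.25 to 1.31 in controls.

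BCL11B is a zinc-finger repressor whose induction marks commitment to the T lineage. In CUTLL1 it had 3542 and 3602 normalised counts with guides, against 7600, and 3424 and 3398 with ASOs, against 8546. In KOPTK1 it had 5520 and 6890 with guides, against 10141, and 5963 and 6895 with ASOs, against 10383. In HpbALL it had 3317 and 3315 with guides, against 9932 and 10198. Every targeted library was below its controls, and those of KOPTK1 lay furthest apart from each other. BCL11B was at 32.9% of its control level in HpbALL and at 39.9% to 61.9% in the other 4 experiments. It fell in both comparisons, with a log2 fold change of -1.2 for guides (SE 0.134, adjusted p 2.99e-05) and -1.01 for ASOs (SE 0.137, adjusted p 0.000779). KOPTK1 minus CUTLL1 in the effect was 0.63 with ASOs (SE 0.148, adjusted p 0.017), a smaller fall in KOPTK1, which was lost with no filter on low values (adjusted p 0.0959). With guides the difference was 0.37 (SE 0.148, adjusted p 0.119), and it passed without KOPTK1 sgRNA 1 (0.53, adjusted p 0.00685). The sequence before its start is printed above.

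RUNX1 and RUNX3 are runt-domain factors that pair with CBFB, RUNX1 from blood stem cells onward and RUNX3 mainly in CD8 T cells and natural killer cells. RUNX1 in CUTLL1 had 8046 and 7920 normalised counts with guides, against 8651, and 8202 and 7819 with ASOs, against 9174. KOPTK1 libraries held 7788 and 8635 with guides, against 10080, and 7805 and 8178 with ASOs, against 9944. HpbALL libraries held 4303 and 4265 with guides, against 7302 and 7062. All targeted libraries were below their controls, and HpbALL was lowest, at 59.6% of control. RUNX1 fell in both comparisons, with a log2 fold change of -0.44 for guides (SE 0.0964, adjusted p 0.00267) and -0.26 for ASOs (SE 0.0431, adjusted p 0.00209). With CUTLL1 guides it did not pass (-0.12, adjusted p 0.094), but did so under quantile scaling (-0.16, adjusted p 0.0196). It also passed without KOPTK1 sgRNA 1 or sgRNA 2, which are not CUTLL1 libraries and left the value at -0.12. The CUTLL1 ASO call for RUNX1 (-0.20, adjusted p 0.0098) was lost without CUTLL1 ASO 2 (adjusted p 0.0591) or with no filter (0.0581). KOPTK1 minus CUTLL1 with guides (-0.18, adjusted p 0.154) passed without KOPTK1 sgRNA 2 (-0.26, adjusted p 0.0215).

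RUNX3 had 935 and 910 normalised counts with guides in CUTLL1, against 1018, and 942 and 965 with ASOs, against 1034. The KOPTK1 levels were 2404 and 2299 with guides, against 2987, and 2555 and 2461 with ASOs, against 2782. The HpbALL levels were 10602 and 9823 with guides, against 10968 and 10100. The groups overlapped in HpbALL, and the differences elsewhere were small beside those of GATA3 or BCL11B. RUNX3 passed with KOPTK1 guides (-0.35, SE 0.061, adjusted p 0.000406) and in none of the other 4 experiments. With KOPTK1 ASOs it just missed (-0.15, adjusted p 0.0503). There it passed with a pseudocount of 5 (adjusted p 0.045) and a minimum mean of 100 (0.0463). It also passed there in 8 of the fits that left out 1 library. Those 8 left out libraries other than the KOPTK1 ASOs and their control. The value thus stayed at -0.15, and only the shared spread and the adjustment changed. With CUTLL1 guides (-0.14, adjusted p 0.0634) it passed without either HpbALL non-targeting guide, which likewise left the value at -0.14. KOPTK1 minus CUTLL1 with guides (-0.20, adjusted p 0.141) passed under quantile scaling (-0.28, adjusted p 0.0468). The fall of 0.16 over the lines with guides (SE 0.0567, adjusted p 0.0317) was lost with no filter (adjusted p 0.0582), under quantile scaling (-0.10, adjusted p 0.145) and without 7 of the 10 libraries in turn. Those were CUTLL1 sgRNA 2 and its non-targeting guide, KOPTK1 sgRNA 1, sgRNA 2 and its non-targeting guide (-0.08, adjusted p 0.165), HpbALL sgRNA 2 and non-targeting guide 1. The fall of 0.13 with ASOs (SE 0.044, adjusted p 0.0342) was lost in edgeR (adjusted p 0.0974) and DESeq2 (0.156), with no filter (0.0814), under quantile scaling (-0.06, adjusted p 0.314) and without any of the 6 libraries except the CUTLL1 scrambled ASO. In both comparisons, fits without the only control of CUTLL1 or of KOPTK1 rested on the remaining lines alone. Both RUNX3 calls were also lost with the replicate number as a block (-0.13, adjusted p 0.0539 with guides and -0.13, 0.138 with ASOs). RUNX1 over RUNX3 was 0.406 and 0.434 in HpbALL targeted libraries, against 0.666 and 0.699 in controls, and targeted and control libraries overlapped in CUTLL1 and KOPTK1.

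ETS1 is a winged helix-turn-helix factor that binds T-cell receptor enhancers, often next to RUNX1. CUTLL1 libraries held 12123 and 12674 normalised counts with guides, against 12380, and 12401 and 12345 with ASOs, against 12914. In KOPTK1 it had 17935 and 18484 with guides, against 22852, and 17993 and 18234 with ASOs, against 22345. In HpbALL it had 23552 and 24316 with guides, against 33297 and 33880. The groups overlapped with CUTLL1 guides and were apart in KOPTK1 and HpbALL. In CUTLL1 neither experiment passed, at 0.00 with guides (95% interval -0.08 to 0.08) and -0.06 with ASOs (-0.14 to 0.02). With the replicate number as a block CUTLL1 ASOs did pass (-0.08, adjusted p 0.0431). The value was -0.33 and -0.30 in KOPTK1 (SE 0.0367 each, adjusted p 1.11e-05 and 2.21e-05) and -0.49 in HpbALL (SE 0.030, adjusted p 3.95e-08). KOPTK1 minus CUTLL1 was -0.33 with guides (SE 0.0519, adjusted p 0.00174) and -0.24 with ASOs (SE 0.0519, adjusted p 0.0113). Over the lines the log2 fold change of ETS1 was -0.30 for guides (SE 0.0723, adjusted p 0.00423) and -0.18 for ASOs (SE 0.0545, adjusted p 0.0239). The ASO call was lost without KOPTK1 ASO 1 (adjusted p 0.0664) or KOPTK1 ASO 2 (0.069). Without the only scrambled ASO of CUTLL1 or of KOPTK1 the fit gave the other line's value alone, -0.30 for KOPTK1 and -0.06 for CUTLL1.

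MYB is a helix-turn-helix activator of progenitor and thymocyte genes and a known T-ALL oncogene. The CUTLL1 levels were 13052 and 12973 normalised counts with guides, against 21563, and 13030 and 12923 with ASOs, against 21499. KOPTK1 libraries held 12455 and 12389 with guides, against 19161, and 11948 and 12091 with ASOs, against 18623. HpbALL libraries held 9545 and 9477 with guides, against 18062 and 17928. Libraries of a group lay close together, and all 10 targeted ones were far below their controls, at 52.9% to 64.8% of control. MYB fell in both comparisons, with a log2 fold change of -0.78 for guides (SE 0.0481, adjusted p 6.91e-07) and -0.68 for ASOs (SE 0.0329, adjusted p 1.46e-05). KOPTK1 minus CUTLL1 did not pass with guides (0.10, 95% interval 0.02 to 0.19, adjusted p 0.103) or ASOs (0.10, 0.01 to 0.18, adjusted p 0.139). With no filter on low values both passed (adjusted p 0.0145 with guides and 0.0188 with ASOs).

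TOX encodes an HMG-box factor that mouse thymocytes need to become CD4 cells. In CUTLL1 it had 2283 and 2260 normalised counts with guides, against 4936, and 2316 and 2213 with ASOs, against 5009. The KOPTK1 levels were 3145 and 3131 with guides, against 7212, and 3040 and 3056 with ASOs, against 7079. The HpbALL levels were 1736 and 1782 with guides, against 5744 and 5446. Targeted libraries were at 31.4% of control in HpbALL and at 43.1% to 46.0% in the other experiments. TOX had the lowest log2 fold change of the 10 factors in both comparisons, at -1.38 for guides (SE 0.0886, adjusted p 8.73e-07) and -1.18 for ASOs (SE 0.0384, adjusted p 5.97e-06). In single experiments it was the lowest in all except CUTLL1 with ASOs, where BCL11B was lower. KOPTK1 minus CUTLL1 was -0.08 with guides (95% interval -0.22 to 0.05) and -0.07 with ASOs (-0.20 to 0.07), and neither passed.

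SATB1 is a chromatin organiser that folds loci in thymocytes, where the mouse protein is needed for normal T-cell maturation. CUTLL1 libraries held 2733 and 2636 normalised counts with guides, against 3418, and 2705 and 2578 with ASOs, against 3514. In KOPTK1 it had 2219 and 2216 with guides, against 3281, and 2073 and 2145 with ASOs, against 3266. In HpbALL it had 7867 and 8066 with guides, against 12210 and 11870. All targeted libraries were below their controls, at 64.6% to 78.5% of control. SATB1 fell in both comparisons, with a log2 fold change of -0.52 for guides (SE 0.0457, adjusted p 6.51e-06) and -0.52 for ASOs (SE 0.0589, adjusted p 0.000341). The fall was deeper in KOPTK1 than in CUTLL1 by 0.22 with guides (difference -0.22, SE 0.0615, adjusted p 0.0361) and with ASOs (-0.22, SE 0.0615, adjusted p 0.0383). The guide call was lost without CUTLL1 sgRNA 1 (-0.19, adjusted p 0.0968), KOPTK1 sgRNA 1 (adjusted p 0.0545) or KOPTK1 sgRNA 2 (0.0561), and with no filter (0.0628). The ASO call was lost without CUTLL1 ASO 1 (-0.18) or KOPTK1 ASO 1 (-0.19). It was also lost with no filter (adjusted p 0.061) and under quantile scaling (0.0525). Leaving out either HpbALL non-targeting guide lost it too, although the value stayed at -0.22, since neither belongs to these lines.

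**Figure D3:**
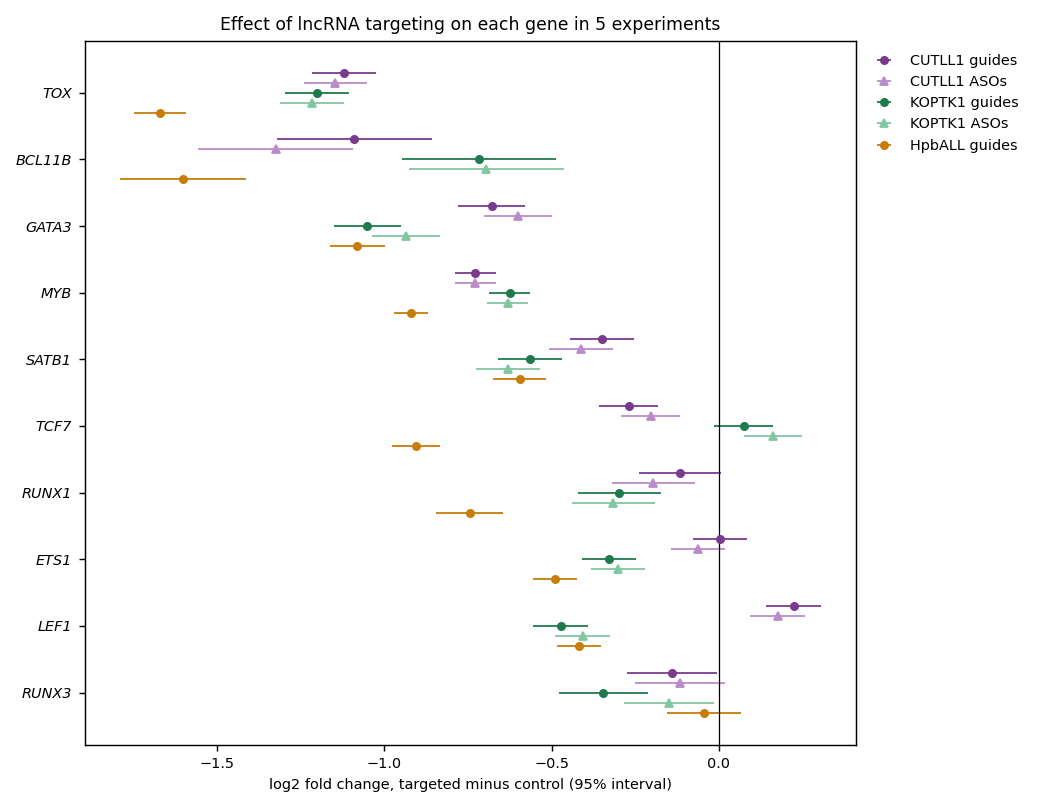
Log2 fold change of targeted minus control libraries for each factor gene (rows) in the 5 experiments, as points with 95% intervals from the fit of all 16 libraries. TOX runs between -1.67 and -1.12 and RUNX3 between -0.35 and -0.04, while TCF7 in KOPTK1 (0.07 and 0.16, negative under quantile scaling) and LEF1 in CUTLL1 (0.22 and 0.18) lie right of 0.

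The effect of guides differed between the 3 lines for all 10 factors by limma's F test, against 43.7% of 14020 genes. The statistic was highest for TCF7 (F 197, adjusted p 4.15e-07) and LEF1 (F 114, adjusted p 3.02e-06) and lowest for RUNX3 (F 7.34, adjusted p 0.0261). By value HpbALL had the lowest log2 fold change of the 3 lines for TOX (-1.67), BCL11B (-1.60), GATA3 (-1.08), MYB (-0.92), TCF7 (-0.90), RUNX1 (-0.75), SATB1 (-0.60) and ETS1 (-0.49). KOPTK1 was close to it for GATA3 (-1.05) and SATB1 (-0.56), and HpbALL was not tested against single lines. KOPTK1 minus CUTLL1 passed for 5 factors with guides, against 16.1% of genes, and for 6 with ASOs, against 13.3%. TCF7, LEF1, GATA3, ETS1 and SATB1 passed in both, each in the same direction, and BCL11B with ASOs. Within a line, libraries of the same status made with guides and with ASOs lay about as close together as replicates of a group.

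Guides and ASOs, set against separate control libraries, gave close values in CUTLL1 and KOPTK1. Guides minus ASOs passed for 0 factors and for 0 of 14020 genes (0.0%) by limma. At an unadjusted p under 0.05 it was higher for 820 genes and lower for 573, with 0 factors among them. The difference in log2 fold change was -0.10 for GATA3 (95% interval -0.20 to 0.00), -0.08 for TCF7 (-0.16 to 0.01) and -0.11 for RUNX3 (-0.24 to 0.02). BCL11B had the widest interval of the 10, at 0.11 (-0.12 to 0.34), and MYB the narrowest, at 0.00 (-0.06 to 0.06). An interval that includes 0 does not show that the 2 agents act alike. Within a line, libraries of the same status made with the other agent differed by a mean chi-square per gene of 1.73 to 14.5, where 1 would be counting noise. Replicates of a group differed by 2.34 to 6.75 (median 3.92, against 4.17 between agents), and targeted from control libraries by 168 to 305. The CUTLL1 libraries sgRNA 1 and ASO 1 were closer, at 1.73, than any replicate pair. So were the CUTLL1 controls of the 2 agents, the non-targeting guide and the scrambled ASO, at 2.29. The lowest values between agents and between replicates, 1.73 and 2.34, involve CUTLL1 ASO 1, whose read step could not be checked, and without it they were 2.29 and 2.49. Since 0 pairs were at counting noise, all 16 were counted as separate libraries. That does not show that they came from separate cultures.

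In control libraries the lines differed in their levels of the factors. Per kilobase of exon, LEF1 was the highest factor gene in controls of HpbALL (16687 normalised counts per kilobase, range 16487 to 16887) and of CUTLL1 (6913, 6833 to 6993). In KOPTK1 controls TCF7 was highest (7022 per kilobase, 6912 to 7133) and LEF1 next (5926, 5852 to 6000). Over the mean of the lines the order was LEF1, TCF7, MYB, ETS1, GATA3, TOX, BCL11B, RUNX3, RUNX1 and SATB1. Ranges of neighbours overlapped for GATA3 and BCL11B in CUTLL1 and for RUNX1 and RUNX3 in KOPTK1. Lengths came from another annotation (GENCODE v29, GRCh38), and with the longest coding sequence in their place only 2 of 10 factors kept their rank.

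RUNX3 differed most between the lines, with 2329 normalised counts per kilobase in HpbALL controls, 227 in CUTLL1 controls and 638 in KOPTK1 controls. In log2 normalised counts it was higher in HpbALL controls than in those of CUTLL1 by 3.36 (SE 0.0498, adjusted p 2.6e-13) and than in those of KOPTK1 by 1.87 (SE 0.0498, adjusted p 1.95e-11). SATB1 stood at 898 per kilobase in HpbALL controls, 258 in CUTLL1 controls and 244 in KOPTK1 controls. It was higher in HpbALL by 1.80 and 1.88 on the log2 scale (SE 0.0355 each), and CUTLL1 minus KOPTK1 missed the threshold (0.08, adjusted p 0.0548), which it passed under quantile scaling (0.13, adjusted p 0.00372). MYB was among the most even, at 3276, 3920 and 3439 per kilobase in HpbALL, CUTLL1 and KOPTK1 controls. Between control lines 10 of 10 factors differed for HpbALL minus CUTLL1 (77.7% of genes), 9 for HpbALL minus KOPTK1 (77.6%) and 9 for CUTLL1 minus KOPTK1 (73.9%). These shares are close to the whole table's. BCL11B did not pass for HpbALL minus KOPTK1 (-0.03, 95% interval -0.22 to 0.16). Its HpbALL minus CUTLL1 call (0.32, adjusted p 0.00487) was lost without the CUTLL1 non-targeting guide (0.24, adjusted p 0.061). MYB's HpbALL minus KOPTK1 call (-0.07, adjusted p 0.0146) was lost under quantile scaling (adjusted p 0.977) and without the KOPTK1 non-targeting guide (0.131) or HpbALL non-targeting guide 2 (0.0647). The RUNX1 call for CUTLL1 minus KOPTK1 (-0.17, adjusted p 0.00591) was lost without the CUTLL1 non-targeting guide (-0.13, adjusted p 0.0651).

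**Figure D4:**
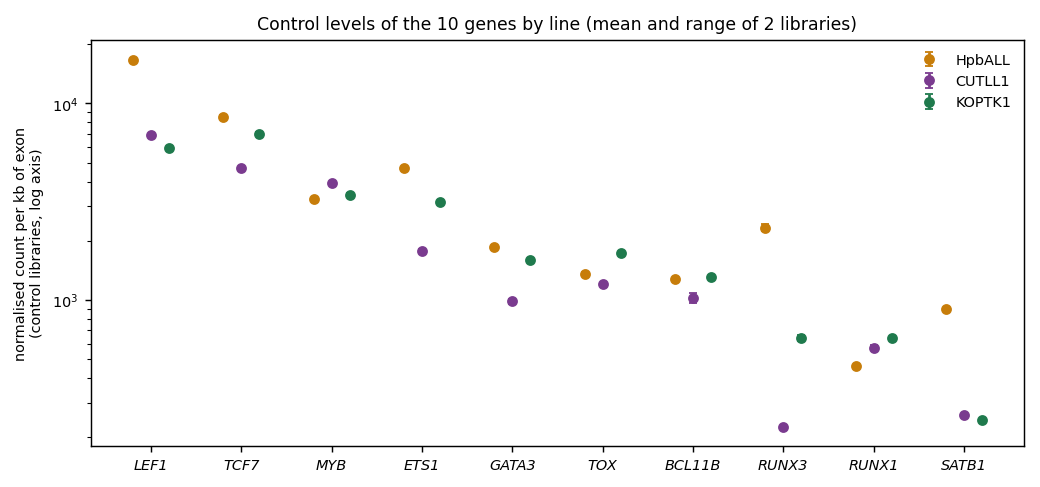
Control levels of the factor genes in normalised counts per kilobase of exon on a log axis, as the mean and range of 2 control libraries for HpbALL, CUTLL1 and KOPTK1. RUNX3 is at 2329 in HpbALL, 227 in CUTLL1 and 638 in KOPTK1, and MYB lies between 3276 and 3920 in the 3 lines.

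Genes around the factors were read from lists. For each list count below, the shares of all tested genes were 35.0% lower and 32.7% higher with guides, and 33.2% and 31.8% with ASOs. Of 29 tested genes that T cells switch on during development 27 were lower with guides (median log2 fold change -1.93) and 27 with ASOs (median -1.81), where all genes had medians of -0.03 and -0.01. CD2, an adhesion receptor gene, was at -3.36 with guides and -3.38 with ASOs, IL7R, the interleukin-7 receptor gene, at -2.56 and -2.50, and SH2D1A, a signalling adaptor gene, at -2.10 and -2.14. Of the 10 tested T-cell identity markers 9 were lower with guides (median -1.09) and 8 with ASOs (median -0.89). The lists share genes, CD2, CD5 and CD3E among them. CD5 was at -2.60 and -2.43 and the T-cell receptor subunit gene CD3E at -1.52 and -1.33.

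Among 17 tested family members and paralogues of the factors 9 were lower and 2 higher with guides (median -0.28), and 10 and 3 with ASOs (median -0.21). MYBL1, a paralogue of MYB, was at 1.17 and 1.12, opposite in sign to MYB. BCL11A, the paralogue of BCL11B, was at -1.74 with guides and -1.44 with ASOs, and ETS2 at -0.63 and -0.70. Of 27 binding partners and cofactors 11 were lower and 8 higher with guides (median -0.10), and 10 and 11 with ASOs (median 0.02). These are 40.7% and 29.6% with guides and 37.0% and 40.7% with ASOs, not far from the shares of all tested genes. CTNNB1, which encodes the beta-catenin bound by TCF1 and LEF1, was at 0.72 and 0.58, RCOR1, a corepressor gene, at 0.70 and 0.66, and MTA1, of the NuRD complex, at -0.75 and -0.62.

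Of 24 tested NOTCH pathway genes 12 were lower and 4 higher with guides (median -0.35), and 11 and 4 with ASOs (median -0.33). MYC, a NOTCH target in T-ALL, was at -2.21 and -1.95, and DTX1, a NOTCH regulator gene, at -1.30 and -1.22. Of 6 E-protein and inhibitor genes tested with guides 3 were lower and 1 higher (median -0.60), and of 5 tested with ASOs 3 and 1 (median -0.43). TCF3 was at -0.80 and -0.65 and TCF12 at -0.54 and -0.43, both genes of E proteins, while the inhibitor gene ID2 was at 1.58 and 1.73. Among other lymphoid regulators 19 of 29 were lower and 3 higher with guides (median -0.74), and 18 and 3 of 27 with ASOs (median -0.59). IKZF1, the Ikaros gene, was at -2.10 and -1.88, NFATC2 at -1.01 and -1.07 and HIVEP3 at -0.92 and -0.89. Of 16 regulators of early progenitors 7 could be tested with guides, and 2 were lower (BCL11A and, at -1.68, the helix-loop-helix factor gene LYL1). With ASOs 3 of 5 were lower, and MEIS1 missed the threshold in both (-0.96 and -0.38).

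**Figure D5:**
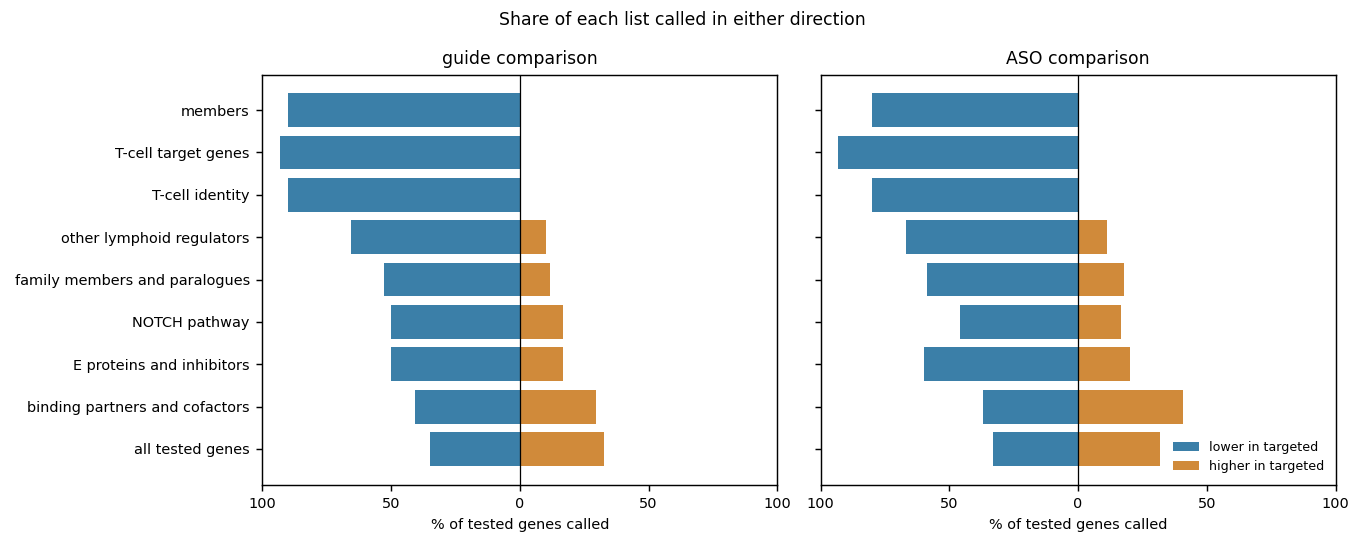
Share of tested genes called lower (blue, left) and higher (orange, right) in targeted than in control libraries at an adjusted p under 0.05, for the 10 factors (members), 7 other lists and all tested genes, in the guide and ASO comparisons. T-cell target genes have 27 of 29 lower in both, and all tested genes 35.0% and 33.2% lower.

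Markers of T cells and other cell types moved with targeting, and their part in the results was not tested. The summed T-cell identity markers had 203776 to 211753 normalised counts in CUTLL1 targeted libraries, against 275606 to 282137 in controls. The sums were 186030 to 199824 in KOPTK1 targeted libraries, against 265331 to 270755 in controls, and 199334 to 211869 in HpbALL targeted libraries, against 345672 to 351807 in controls. All 3 tested B-lineage markers of 9 were lower with guides: IGLL1 (-3.39), CD79B (-2.55) and CD79A (-1.49). Their summed level was 313 to 335 in CUTLL1 targeted libraries, against 899 to 915 in controls, 522 to 633 in KOPTK1 targeted libraries, against 4567 to 4653, and 1778 to 2045 in HpbALL targeted libraries, against 10604 to 10870. Of 11 myeloid markers only AIF1 could be tested (-0.67 with guides), and it held nearly the whole myeloid sum. That sum was 7071 to 7580 in CUTLL1 targeted libraries, against 11416 to 11772 in controls, 4338 to 4629 in KOPTK1 targeted libraries, against 6519 to 6610, and 2604 to 2705 in HpbALL targeted libraries, against 4126 to 4380.

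Natural killer and innate markers were split, with PRF1 (-2.34) and NKG7 (-2.0) lower and NFIL3 (1.21) and ID2 higher, 4 of the 5 tested. Their sum was lower in CUTLL1 targeted libraries (1530 to 1645, against 2712 to 2773) and KOPTK1 targeted libraries (1073 to 1222, against 2666 to 2690). In HpbALL it was higher in targeted libraries, 2787 to 2845, against 2194 to 2215. Of 4 tested epithelial and fibroblast markers CDH1 was lower (-3.09) and VIM, which lymphoid cells also express, higher (0.37). COL1A2 did not pass with guides (0.39, adjusted p 0.827). EPCAM and KRT19 were at or near 0 in normalised counts. The other listed genes besides VIM reached 426 (COL1A1), 276 (COL1A2), 204 (CDH1), 39.6 (KRT8), 27.1 (DCN) and 12.7 (KRT18). COL1A1 was at 1.82 with guides (adjusted p 0.052) and 1.36 with ASOs (adjusted p 0.0131). That sum, carried by VIM, was 64129 to 67141 in CUTLL1 targeted libraries, against 42040 to 42475, 34877 to 35703 in KOPTK1 targeted libraries, against 32322 to 32356, and 28328 to 28813 in HpbALL targeted libraries, against 21954 to 22269. None of the 9 erythroid and megakaryocyte markers reached the level needed for a test, and their sum did not exceed 29.6.

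Over the 16 libraries, which share their lines, treatments and scaling, the factors followed each other to different degrees in log2 normalised counts. BCL11B and TOX had a Pearson r of 0.95 and LEF1 and SATB1 of 0.92, whereas TCF7 and LEF1 had -0.16. The non-member genes whose pattern was most like each factor were MTHFD1L and WSB2 for GATA3 (r 0.987 each), IFIT3 and ATP6V0A2 for TCF7 (0.980 and 0.971), and PALLD and COMMD2 for LEF1 (0.995 and 0.990). They were CBFA2T3 and POLR3D for BCL11B (0.989 and 0.984), MBNL3 and FBLN2 for RUNX1 (0.985 and 0.982), and HSPA4L and CYFIP1 for RUNX3 (0.996 and 0.995). TNFSF8 and ANKH were nearest to ETS1 (0.997 and 0.991), DDX21 and PPRC1 to MYB (0.997 and 0.992), UBL4A and URB2 to TOX (0.994 each), and IRS1 and SLC3A2 to SATB1 (0.996 and 0.994). These values describe likeness over few, grouped libraries and carry no test.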

How the data were processed

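RNA-seq of 16 libraries was analysed from 1 deposited table of 57820 genes, 2344 of them with an identifier before the symbol. The deposited unit is a signal, normalised counts of reads. In each column 100% of values were whole multiples of a smallest step (tolerance 1e-06), so columns were read as whole reads divided by 1 factor per library. For CUTLL1 ASO 1 that step is too near 1 to be checked, and its recovered reads rest on it. Per the submitters' processing notes the tools were STAR and DESeq2 and the build hg19, with no roles stated. Sources used here do not give the counting tool, annotation, use of strand or filters. Titles number the targeted libraries of a group as guide or ASO 1 and 2 while descriptions call them replicates, and they were used as replicates.

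Tests used limma 3.58.1 (R 4.3.3; empirical Bayes with intensity trend) on log2(normalised count + 1), a scale that understates changes of low genes, for genes whose mean over the fitted libraries reached 20. An adjusted p (Benjamini-Hochberg over all tested genes) under 0.05 was called. The guide comparison took 10 libraries and the ASO comparison 6, with line as a term and a single effect for all lines. All other contrasts came from 1 fit of 10 group means over 16 libraries. KOPTK1 minus CUTLL1 in the effect was added after the data were seen. Tests were tried on simulated counts. The factors and lists were chosen with earlier results of these data known, and lists are described by counts and medians, without a test. Named were all 10 factors, up to 3 tested genes per list with the smallest p in the guide comparison, and the 2 genes most like each factor.

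Alternatives were a pseudocount of 5, no filter, a minimum mean of 100, median-of-ratios and quantile scaling, edgeR 4.0.16 (quasi-likelihood) and DESeq2 1.42.0 on recovered reads (without CUTLL1 ASO 1, whose read step is too near 1 to be checked), the replicate number as a block, and leaving out each library. Gene lengths came from GENCODE v29 and promoters from RefSeq (GRCh38.p14), by symbol; 8 of 10 factors had a promoter window used here.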

Additional observations from a re-analysis of the deposited data

Results flagged for a closer look

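The effect of guides differed between CUTLL1, KOPTK1 and HpbALL for each of the 10 factor genes by limma's F test of the difference itself, which is what marked them for a closer look; 43.7% of all tested genes passed the same test. F was 197 for TCF7, 114 for LEF1, 60.1 for TOX, 54.0 for ETS1, 42.2 for RUNX1, 36.1 for MYB, 25.9 for GATA3, 22.1 for BCL11B, 10.6 for SATB1 and 7.34 for RUNX3. TCF7 and LEF1 were the only ones of the 10 with a called rise in any single experiment, LEF1 in CUTLL1 and TCF7 with KOPTK1 ASOs, whose sign turned under quantile scaling. Leaving out KOPTK1 sgRNA 1 or sgRNA 2 moved F to 65.9 or 36.6 for BCL11B and to 83.9 or 73.8 for RUNX1. Leaving out CUTLL1 sgRNA 1 moved it to 6.81 for SATB1 (adjusted p 0.0397). The RUNX3 call was lost without KOPTK1 sgRNA 2 (F 4.99, adjusted p 0.0666), HpbALL sgRNA 1 (F 5.40, adjusted p 0.0647), HpbALL non-targeting guide 2 (F 5.39, adjusted p 0.0659) and with no filter on low values (F 6.80, adjusted p 0.0953). No group held 4 or more libraries, so single libraries could not be tested as outliers.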

How the results depend on the processing

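Of 2820 values recomputed for single factors 2718 kept their direction and side of the threshold. Another 50 lost a call, 34 gained one and 18 changed sign, and the causes were not tested. Many of the 2820 came from fits that left out a library outside the groups compared. There the log2 fold change could not move, and only the shared spread and the adjustment could. The count of 2718 is therefore not a measure of robustness. Quantile scaling moved the median log2 fold change of all genes to 0.07 in the guide comparison, against -0.03 as deposited. It turned TCF7 in KOPTK1 to -0.16 (guides) and -0.050 (ASOs), ETS1 with CUTLL1 guides to -0.044, LEF1 in guides minus ASOs to 0.025 and BCL11B in HpbALL minus KOPTK1 controls to 0.018, and left 0 factors higher with CUTLL1 or KOPTK1 ASOs. TCF7 over both ASO lines was -0.19 (adjusted p 0.0292) under quantile scaling, 0.0012 by edgeR and 0.0085 by DESeq2. In HpbALL, the only line where control and targeted libraries share 2 numbers, deviations of same-numbered libraries correlated at r 0.042. That value showed no sign of pairing by number. It cannot exclude that same-numbered libraries were made together, and it does not cover CUTLL1 or KOPTK1. With the replicate number as a block 8 factors were lower with guides and 6 with ASOs, 1 was higher with KOPTK1 guides (TCF7) and ETS1 with CUTLL1 guides was -0.014. In guides minus ASOs 1 gene was higher with a pseudocount of 5 and 1 with quantile scaling, and 848 genes were higher and 653 lower with no filter. With no filter KOPTK1 minus CUTLL1 gave 2 factors higher with guides (TCF7 and MYB) and 1518 genes lower with ASOs. Leaving out 1 library at a time gave 0 to 3 genes higher and 0 to 1 lower in guides minus ASOs, and 1 to 2 factors higher in KOPTK1 minus CUTLL1 with guides. In the ASO comparison it gave 0 factors higher, except without a scrambled ASO, where the fit rests on a single line. Values that changed sign when 1 library was left out ran between -0.20 and 0.16 for TCF7 and -0.41 and 0.18 for LEF1 with ASOs. Those ends come from fits that rest on a single line. They also ran between -0.030 and 0.034 for ETS1 with CUTLL1 guides, and -0.10 and 0.015 for RUNX3 in HpbALL. In guides minus ASOs they ran between -0.024 and 0.0057 for LEF1 and -0.0012 and 0.0074 for MYB. By longest coding sequence 2 of 10 factors kept their rank in level.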
